A study of Mus musculus with 12 samples.

Results

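The comparison described here is the crushed mouse sciatic nerve at day 7 after injury against the nerve at day 0. Its members are the 6 arrays whose titles name day 7 or day 0, of 12 arrays in the series, with 3 arrays at each of 4 time points. All mice were C57Bl6 and aged about 2 months. In both groups RNA came from the distal 0.5 cm of the right nerve, and the crush lasted 30 s at the upper thigh, with a ligature left to mark its place. Each array held the total RNA of 6 mice in 1 pool, so a time point drew on 18 mice and the 12 arrays on 72. The day 0 group was harvested on the day of surgery by its label, and no uninjured or sham-operated nerve is named as a further control. Whole segments of nerve were taken, so every value is a mixture of Schwann cells, blood-derived cells, fibroblasts, vessels and the remains of axons. In such bulk samples fewer cells of a type and less RNA per cell cannot be told apart.

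After a crush the axons beyond the injury break down, Schwann cells give up their myelin programme and divide, and macrophages enter and clear debris. By the end of the first week new axons grow into the distal segment. The arrays were designed for long non-coding RNA and carry 90752 probes of 60 bases, identified by number alone. A microRNA is cut from a hairpin within a longer primary transcript, which is often a non-coding RNA or the intron of a host gene. Its seed, bases 2 to 8 of the mature strand, is the part that pairs with target messages. Probes could be named where all 60 bases lay in a RefSeq miRNA hairpin of the GRCm38.p6 assembly (880 probes for 871 hairpins, sense strand, of 1005 hairpins in the table). A further 382 probes lay in RefSeq windows from 250 bases before to 50 after the start of 1 gene. A 60-base probe is longer than any mature miRNA and reads the primary transcript or host RNA, so mature miRNA levels were not measured. Whether that host RNA was spliced or unspliced was not determined. Other places in the genome that hold the same 60 bases were not searched.

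The hairpins on which the results turn have these mature strands in RefSeq (GRCm38.p6), shown because the seed decides which miRNAs share targets. Letters run 5′ to 3′ and capitals mark the seed.
miR-147-5p of Mir147, chr2:122640814-122640837, plus strand: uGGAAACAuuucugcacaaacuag
miR-142a-3p of Mir142, chr11:87756903-87756925, plus strand: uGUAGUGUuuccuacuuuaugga
miR-223-3p of Mir223, chrX:96242884-96242905, plus strand: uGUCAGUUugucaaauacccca
miR-21a-5p of Mir21a, chr11:86584120-86584141, minus strand: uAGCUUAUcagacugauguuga
miR-214-3p of Mir214, chr1:162223438-162223459, plus strand: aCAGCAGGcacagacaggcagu
miR-377-3p of Mir377, chr12:109740553-109740574, plus strand: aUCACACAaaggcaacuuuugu
miR-675-3p of Mir675, chr7:142577078-142577099, minus strand: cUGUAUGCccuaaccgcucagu
miR-27b-3p of Mir27b, chr13:63300760-63300780, plus strand: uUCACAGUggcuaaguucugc
miR-27a-3p of Mir27a, chr8:84208727-84208747, plus strand: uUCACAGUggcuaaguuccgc
miR-195a-5p of Mir195a, chr11:70235062-70235082, plus strand: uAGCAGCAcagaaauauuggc
miR-338-3p of Mir338, chr11:120014781-120014802, minus strand: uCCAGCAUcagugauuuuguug
miR-100-5p of Mir100, chr9:41531437-41531458, plus strand: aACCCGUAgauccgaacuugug
Only miR-27a-3p and miR-27b-3p share a seed among these 12 strands.

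The array reads these hairpins through the following probes, which are shown for both strands of 2 loci and for 2 further hairpins. Capitals mark the mature strand where the probe holds a whole one.
Mir142 probe: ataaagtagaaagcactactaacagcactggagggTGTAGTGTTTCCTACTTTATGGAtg
Mir142b probe: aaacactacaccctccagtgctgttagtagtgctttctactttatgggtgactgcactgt
Mir338 probe: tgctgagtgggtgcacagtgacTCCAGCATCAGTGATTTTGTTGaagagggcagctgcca
Mir3065 probe: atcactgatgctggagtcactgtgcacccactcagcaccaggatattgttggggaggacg
Mir27b probe: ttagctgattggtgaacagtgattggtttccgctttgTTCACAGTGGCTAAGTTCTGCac
Mir195a probe: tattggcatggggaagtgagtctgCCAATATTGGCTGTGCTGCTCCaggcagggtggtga
Mir142 and Mir142b lie on opposite strands of the same stretch of chromosome 11, as do Mir338 and Mir3065 further along it, so each pair of probes reads transcripts of opposite direction.

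Mir147, Mir142, Mir21a and Mir223 had the 4 largest fitted rises among hairpins at day 7, with 9.62-fold for Mir21a and 25.2-fold for Mir147. Mir214 of Dnm3os, Mir675 of the H19 locus and 8 hairpins of the Meg3, Rian and Mirg region rose as well, as did the cluster of Mir23b, Mir27b and Mir24-1. Among the falls were Mir6351, Mir195a, the Mir338 and Mir3065 pair at Aatk, and Mir100. Values are scaled log2 signals, on which 1 unit is a 2-fold difference. Calls were made in limma where p, adjusted by Benjamini-Hochberg over 62803 tested probes, was below 0.05. A probe was tested if 1 time point or more had it well above background on each of its 3 arrays. Of the 871 hairpins, each read by its brightest probe, 528 were tested, 68 were called higher and 64 lower at day 7. The called share of hairpins was 25%, while 44.4% of all tested probes were called, 20.4% higher and 24% lower. A total of 21 hairpins rose and 12 fell by 2-fold or more, and 4 of the 132 calls rest on a hairpin not well above background on any day 7 array and 5 on one not so at day 0. The median log2 fold change was -0.19 over tested hairpins and -0.11 over all tested probes. Among called hairpins, 66 of the 68 rises and 52 of the 64 falls showed no overlap between the days. Calls over all probes well above background on all 6 arrays were without overlap in 23762 cases and with it in 873. Lack of overlap was thus usual for called probes and not special to hairpins. Of the calls well above background on all 6 arrays, a larger share showed overlap among hairpins than among all probes. That difference in share was not tested.

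Slide, read from the array barcode, was not balanced between the days. Day 0 replicates 1 and 2 lay on slide 1, day 0 replicate 3 and day 7 replicates 2 and 3 on slide 2, and day 7 replicate 1 on slide 3. Between 69.0% and 79.5% of spots were well above background on the day 0 arrays and between 67.5% and 71.5% on the day 7 arrays. Over the tested hairpins the median signal was 7.17 and 7.15 on the day 0 arrays of slide 1, 6.50 on that of slide 2, and 6.62 to 6.91 at day 7. A fixed slide block left 37.5% of all probes called. The count of hairpins that rose was then 66, 46 of them in common with the 68, and the count that fell was 30, with 22 in common with the 64. Without day 0 replicate 3 the count of falls was 204, and without day 0 replicate 1 or 2 it was 27 in either case. Quantile normalization moved the median of all probes from -0.11 to -0.01 and gave 97 rises and 48 falls among hairpins, 66.9% higher against 51.5%. Values under the slide block are given beside the hairpins below.

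**Figure D1:**
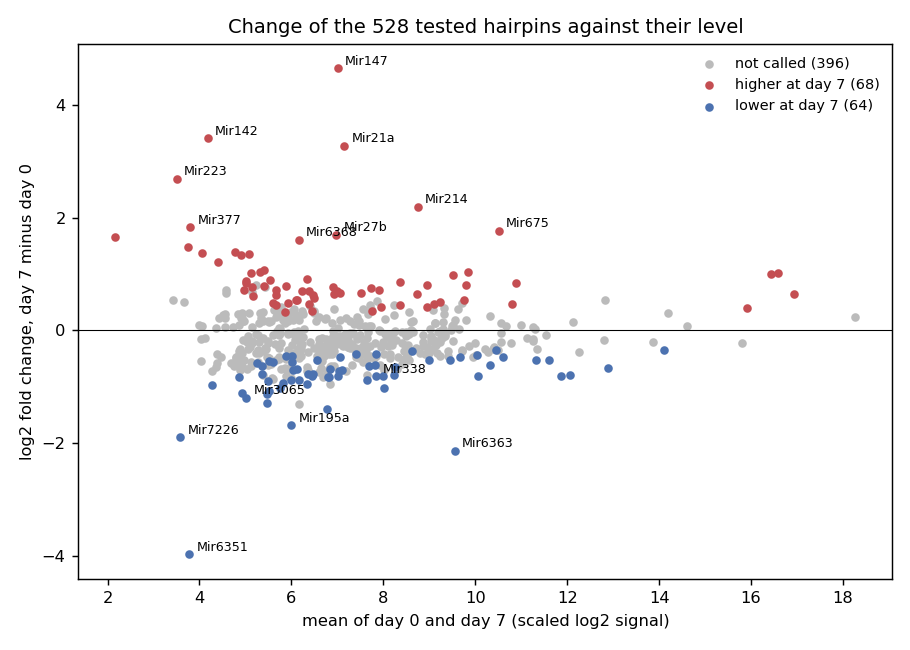
Each point is 1 of the 528 tested hairpins. The horizontal axis is the mean of the day 0 and day 7 scaled log2 signals, the vertical axis is the log2 fold change at day 7, and colours mark the 68 hairpins called higher, the 64 called lower and the 396 not called. Mir147, Mir142, Mir21a and Mir223 stand highest. Fold changes of dim hairpins not well above background on 1 of the days depend on values near the floor of the array.

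Mir147 lies in AA467197, a gene that macrophages switch on after inflammatory stimuli, on chr2:122640803-122640881 of the plus strand. Its signals were 4.72, 4.51 and 4.81 at day 0 and 8.81, 9.20 and 9.97 at day 7. All 3 day 7 arrays stood far above all 3 day 0 arrays. The log2 fold change was 4.65 (SE 0.31, adjusted p = 9.89e-07), and 4.63 with the slide block. This was the largest rise among hairpins well above background on all 6 arrays. At day 3 its mean was 9.95 and at day 14 it was 8.01, and the difference from day 7 was called for day 14 (adjusted p = 0.0233) and not for day 3 (adjusted p = 0.136).

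Mir142 is a hairpin of blood-forming lineages, on chr11:87756864-87756927 with no annotated host gene on its strand in the table used. It was well above background on no day 0 array (2.84, 2.29 and 2.31) and on all 3 day 7 arrays (6.50, 5.72 and 5.47). Against the lowest signals well above background it was at least 4.84-fold higher at day 7, with a fitted log2 fold change of 3.41 (SE 0.25, adjusted p = 1.63e-06) and 3.07 with the slide block. Mir142b, on the other strand, went the opposite way, from 5.65, 5.49 and 4.67 to 4.47, 4.52 and 4.34. Its log2 fold change of -0.83 (adjusted p = 0.019) was -0.51 with the slide block, where it was not called (adjusted p = 0.2).

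Mir223, best known from neutrophils and monocytes, lies in F630028O10Rik on the X chromosome. It was well above background on no day 0 array (1.69, 2.24 and 2.55) and on 2 of the day 7 arrays, where the signals were 5.34, 4.15 and 5.06. It was at least 2.35-fold higher (fitted log2 fold change 2.69, SE 0.34, adjusted p = 9.58e-05, and 2.33 with the slide block). Mir155, which lies in Mir155hg and is known from activated immune cells, had a different course and went from 7.29, 7.28 and 7.0 to 6.24, 6.66 and 6.61. Its fall, with a log2 fold change of -0.69 (adjusted p = 0.014), was -0.25 with the slide block and not called (adjusted p = 0.209). In the list of 8 measured blood cell hairpins, 4 were tested, with 3 higher and Mir155 lower. With the slide block 3 were higher and none lower. Mir142 and Mir223, well above background on no day 0 array, were tested only through arrays after the crush. The filter thus favoured rises in this count. Over all tested hairpins 25% were called, and over all tested probes 44.4%. The other 4 were not tested: Mir144, Mir146 and Mir146b were well above background on none of the 6 arrays. Mir451a, a red cell hairpin, was above it on 2 day 0 arrays and on no day 7 array.

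Mir21a, near the end of Vmp1, is one of the miRNAs most often reported after tissue injury. Its signals were 5.22, 5.66 and 5.66 at day 0 and 9.02, 8.89 and 8.42 at day 7. Every day 7 array was far above every day 0 array. A log2 fold change of 3.27 (SE 0.22, adjusted p = 1.01e-06) was found, and 2.90 with the slide block. Day 7 was above day 14 by the test between them, with day 14 lower by 0.89 (adjusted p = 0.0281), while the difference of 0.44 from day 3 was not called (adjusted p = 0.133). In the list of hairpins studied in nerve injury, 11 of 17 were tested, and Mir21a and Mir29a were called, a share of 18.2%. That share was below the 25% of all tested hairpins and the 44.4% of all tested probes. Mir29a was not well above background on any array of either day, so no fold is given, and the slide block ended its call (adjusted p = 0.0785). With the block Mir96 was called higher (0.43, adjusted p = 0.0398) and Mir29c lower (-0.42, adjusted p = 0.0326), neither of which was called without it (-0.19 and -0.16). Mir31 (log2 fold change -0.87), Mir210 (-0.70), Mir222 (-0.71), Mir221 (-0.36) and Mir212 (-0.17) did not pass the test. With the slide block the value of Mir31 was 0.11 and that of Mir210 was 0.04.

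**Figure D2:**
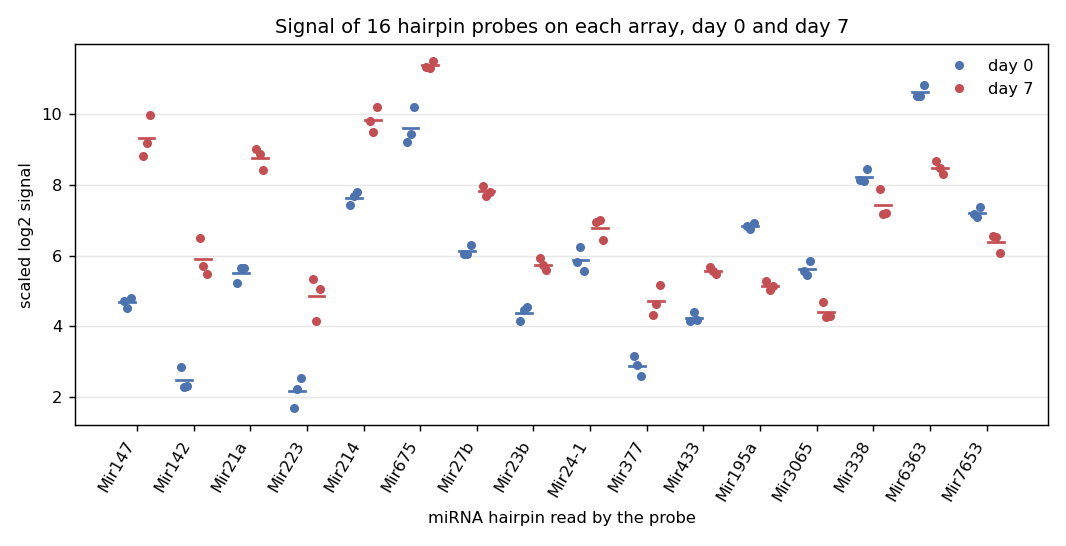
The vertical axis is the scaled log2 signal and each point is 1 array (day 0 in blue, day 7 in red), with a bar at the mean of 3 arrays for each of 16 hairpins. The days do not overlap in any of the 16, which were chosen with results known, most of them by a rule that requires this. Mir147 went from 4.51 to 4.81 at day 0 up to 8.81 to 9.97 at day 7, and Mir195a from 6.75 to 6.93 down to 5.04 to 5.29.

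Mir214 is cut from Dnm3os, a non-coding RNA on the strand opposite to Dnm3 that is active in connective tissue. Its signals were 7.43, 7.70 and 7.81 at day 0 and 9.81, 9.51 and 10.20 at day 7. The log2 fold change was 2.19 (SE 0.25, adjusted p = 4.17e-05), and 2.29 with the slide block. Day 7 stood above both neighbouring time points: the mean was 8.91 at day 3 (adjusted p = 0.0177) and 8.68 at day 14 (adjusted p = 0.0136). With the slide block the difference from day 3 was not called. Mir199a-2, the other hairpin of Dnm3os, was well above background on 1 day 7 array and was not tested. Its probe shares at least 25 bases with Mir199a-1 or Mir199b. Mir199a-1 did not pass the test (log2 fold change 0.16, adjusted p = 0.627).

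Mir675 is cut from H19, an imprinted non-coding RNA that is high before birth and in repair, and its hairpin lies within the annotated span of H19 on chromosome 7. The signals were 9.22, 9.43 and 10.22 at day 0 and 11.34, 11.31 and 11.50 at day 7. Every day 7 array exceeded every day 0 array, and the highest day 0 value came from the array on slide 2. The log2 fold change was 1.76 (SE 0.28, adjusted p = 0.000562), and 1.39 with the slide block. Differences of day 7 from day 3 (0.69, adjusted p = 0.0782) and from day 14 were not called.

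The imprinted Dlk1-Dio3 region of chromosome 12 holds the maternally expressed non-coding RNAs Meg3, Rian and Mirg and a large cluster of hairpins. Between chr12:109563692 and chr12:109747960, a span of 184 kb, 53 hairpins on the plus strand had a probe and 25 were tested. Of these, 8 were higher at day 7 and 1, Mir1188 of Rian, was lower. Among the 25, 20 were well above background on all 6 arrays. In a fit limited to such probes, 6 hairpins of the region were higher. The median log2 fold change of the 25 was 0.31, with -0.11 over all tested probes. The slide block gave 14 higher, none lower and a median of 0.75. The share higher without the block was 32%, with 20.4% of all tested probes and 12.9% of tested hairpins, and the share called in either direction was 36%, with 44.4% and 25%. With the block, 10554 of 62803 probes and 66 of 528 hairpins were higher. The region was described with earlier results known, and no test set it against other genes. The 8 that rose were Mir377, Mir1193, Mir433, Mir300, Mir679, Mir432, Mir453 and Mir668, and all 8 were also called with the slide block. For Mir668 another, brighter probe gave a different reading. It lies in the start window of Mirg, overlaps Mir668 on the same strand and holds all of miR-668-3p. Its log2 fold change was -0.15 (adjusted p = 0.647), and 0.40 with the slide block (adjusted p = 0.176), so it was not called. Day 14 was called lower than day 7 for 6 of the 8, and day 7 higher than day 3 for 2. The 8 were chosen by day 7 values that enter both contrasts, which favours day 7 as the highest. Over all 25 tested hairpins, day 14 was lower than day 7 for 8 and higher for 0. Day 7 was higher than day 3 for 3 of the 25 and lower for 2.

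Mir377, which lies in Mirg, was well above background on no day 0 array (3.15, 2.90 and 2.59) and on all 3 day 7 arrays (4.32, 4.62 and 5.18). Mir377 was thus tested only through arrays after the crush. It was at least 2.13-fold higher, with a fitted log2 fold change of 1.83 (SE 0.31, adjusted p = 0.000819) and 2.39 with the slide block. Mir433 went from 4.14, 4.42 and 4.18 to 5.67, 5.58 and 5.47. Its log2 fold change was 1.33 (SE 0.32, adjusted p = 0.0066), and 1.55 with the slide block. The probe upstream of the start that RefSeq gives for Meg3, still within the span of Meg3, read 15.07, 15.20 and 15.52 at day 0 and 16.22, 16.43 and 16.43 at day 7. Meg3 RNA there rose by a log2 fold change of 1.1 (SE 0.20, adjusted p = 0.00109), or 1.24 with the slide block, and was higher than at day 3 (adjusted p = 0.00455). The brightest hairpins of the region gave other values: Mir3072 did not pass the test (-0.06, adjusted p = 0.607), and Mir1188 gave -0.52 (adjusted p = 0.0368) and -0.08 with the slide block.

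**Figure D3:**
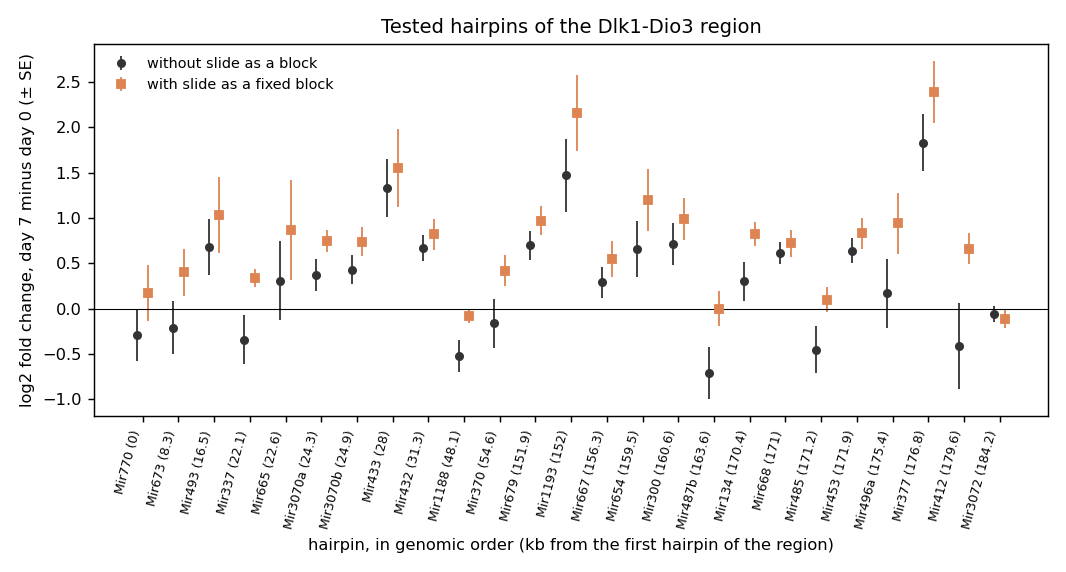
The vertical axis is the log2 fold change at day 7 with its standard error, for the 25 tested hairpins of the Dlk1-Dio3 region in genomic order, with distance in kb from the first hairpin in brackets. Circles are values without and squares with slide as a block. Mir377, Mir1193 and Mir433 stand highest under both, at 1.33 to 1.83 and at 1.55 to 2.39, and most other hairpins lie higher with the block. The day 0 means of Mir377 (2.88) and Mir1193 (3.02) lie near the floor of the array, so the sizes of these changes depend on it.

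The cluster of Mir23b, Mir27b and Mir24-1 lies in the host gene Aopep on chromosome 13, and its relative of Mir23a, Mir27a and Mir24-2 on chromosome 8. These miRNAs are studied in vessels, muscle and immune cells. All 6 hairpins were tested, and 5 were called higher (median log2 fold change 1.06), or 3 with the slide block. Of all tested probes 20.4% were higher, and of all tested hairpins 12.9%. Mir27b went from 6.05, 6.05 and 6.29 to 7.98, 7.70 and 7.79, a log2 fold change of 1.69 (SE 0.13, adjusted p = 2.8e-06) and of 1.43 with the slide block. Mir23b went from 4.14, 4.47 and 4.55 to 5.93, 5.73 and 5.59, and its log2 fold change was 1.36 (SE 0.15, adjusted p = 2.92e-05), and 1.1 with the block. Mir24-1 rose from 5.82, 6.26 and 5.58 to 6.94, 7.00 and 6.44. Its log2 fold change of 0.91 (SE 0.20, adjusted p = 0.00383) was 0.88 with the block, and its probe shares at least 25 bases with Mir24-2. For all 3 the day 7 arrays lay above the day 0 arrays without overlap. All 3 were also higher at day 7 than at day 3, by 1.63 for Mir23b, 1.58 for Mir27b and 1.14 for Mir24-1. None of the 3 differed between day 14 and day 7 at the threshold (adjusted p = 0.0559, 0.102 and 0.0845). Their day 3 means lay within 0.26 of day 0, with Mir23b well above background on 1 array at day 3.

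The chromosome 8 cluster gave smaller values. Mir23a (log2 fold change 1.21, adjusted p = 0.0212) and Mir27a (0.88, adjusted p = 0.00587) were called, and with the slide block their values were 0.27 and 0.48 and neither was called (adjusted p = 0.308 and 0.107). Mir24-2 did not pass the test (0.13, adjusted p = 0.466). Whether the 2 clusters differ in their change was not tested.

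Rises of about 2-fold or more were also found in single hairpins of several host genes. Mir6368, in 2610307P16Rik, went from 5.23, 5.33 and 5.50 to 6.94, 7.13 and 6.81 (log2 fold change 1.61, adjusted p = 0.000338, and 1.22 with the slide block). Mir763 lies in Hmga2, a chromatin protein gene of growing cells. It went from 9.54, 9.45 and 8.95 to 10.24, 10.57 and 10.26, with a log2 fold change of 1.04 (adjusted p = 0.00634), and was not called with the slide block (0.96, adjusted p = 0.0575). It was 1.95 below its day 3 level (adjusted p = 0.000458), where its mean was 12.31. Mir128-1 of R3hdm1, a neuronal miRNA, rose by a log2 fold change of 1.01 (adjusted p = 0.000891), and 0.72 with the block. Mir5619 (1.07 without and 0.68 with the block), Mir3100 of Dmpk (1.04 and 1.01) and Mir5136 (0.98 and 0.64) were called both ways. Mir692-1 (1.0 without and 0.50 with the block) and Mir692-2 (1.01 and 0.52) were read at signals of 15.69 to 17.15 by probes that share at least 25 bases with each other, so they are not independent. Mir92-1, the hairpin of Mir17hg that could be tested with a rise, was well above background on no day 0 array and at least 1.91-fold higher at day 7. It was not called with the slide block (fitted log2 fold change 1.25, adjusted p = 0.11).

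Mir195a stands with Mir497 in a pair that slows the cell cycle in several tissues. Its signals were 6.84, 6.75 and 6.93 at day 0 and 5.29, 5.04 and 5.13 at day 7. The log2 fold change was -1.69 (SE 0.20, adjusted p = 6.38e-05), and -1.52 with the slide block. The difference from day 3 (mean 5.43) was not called (adjusted p = 0.285), and day 14 was higher than day 7 by 1.13 (adjusted p = 0.00556). Mir497 was well above background on none of the 6 arrays, and Mir16-1 of Dleu2, which carries the same seed family, did not pass the test (log2 fold change 0.35, adjusted p = 0.0558). Mir195b has the seed AGCAGCA of miR-195a-5p too. Its value was -0.83 (adjusted p = 0.021), and -0.28 with the slide block, where it was not called. Mir6353, which shares that seed, was called in the other direction (0.48) and not with the block.

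At Aatk, a kinase gene of the nervous system, Mir338 lies on the gene's strand and Mir3065 on the opposite strand. Mir338 is known for promoting the maturation of myelinating cells in the brain. It went from 8.15, 8.12 and 8.44 at day 0 to 7.89, 7.17 and 7.21 at day 7. Its log2 fold change was -0.82 (SE 0.27, adjusted p = 0.0289), and -1.48 with the slide block (adjusted p = 0.000201). Mir3065 went from 5.56, 5.46 and 5.84 to 4.70, 4.27 and 4.29, and its log2 fold change was -1.20 (SE 0.14, adjusted p = 5.44e-05) and -1.48 with the block. Day 7 arrays lay below day 0 arrays for both. Both were lower still at day 3, with means of 5.84 and 3.93, and the differences of 1.59 (adjusted p = 0.00188) and 0.50 (adjusted p = 0.0219) from day 7 were called. With the slide block the difference from day 3 was still called for Mir338 and not for Mir3065. By day 14 both had risen again over day 7, by 1.55 and 1.48. Without the block both strands of the locus thus shared the direction at each step. The day 3 mean of Mir3065 (3.93) lies within the range of the lowest signals well above background at days 0 and 7 (3.38 to 4.18).

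Mir100, cut from Mir100hg together with Mirlet7a-2 and Mir125b-1, showed the same course. It went from 7.42, 7.22 and 7.57 to 6.91, 6.43 and 6.68, with a log2 fold change of -0.73 (SE 0.15, adjusted p = 0.00274) and of -0.98 with the slide block. Its day 3 mean was 5.50, lower than day 7 by 1.17 (adjusted p = 0.000478). Its neighbours on the transcript did not pass the test: Mirlet7a-2 gave -0.41 and Mir125b-1 gave 0.35. In the let-7, miR-99, miR-100 and miR-125 list 12 of 16 hairpins were tested, 2 rose and 1 fell. The called share was 25%, the same as over all tested hairpins, with 44.4% over all tested probes. Mirlet7i rose from 4.64, 4.80 and 4.36 to 5.53, 5.59 and 5.18 (log2 fold change 0.83, adjusted p = 0.000722, and 0.87 with the block). Mirlet7c-1, with the let-7 seed GAGGUAG like Mirlet7i, rose by 0.34 (adjusted p = 0.0477), or 0.43 with the block, and stood 1.03 above its day 3 level (adjusted p = 0.000352).

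**Figure D4:**
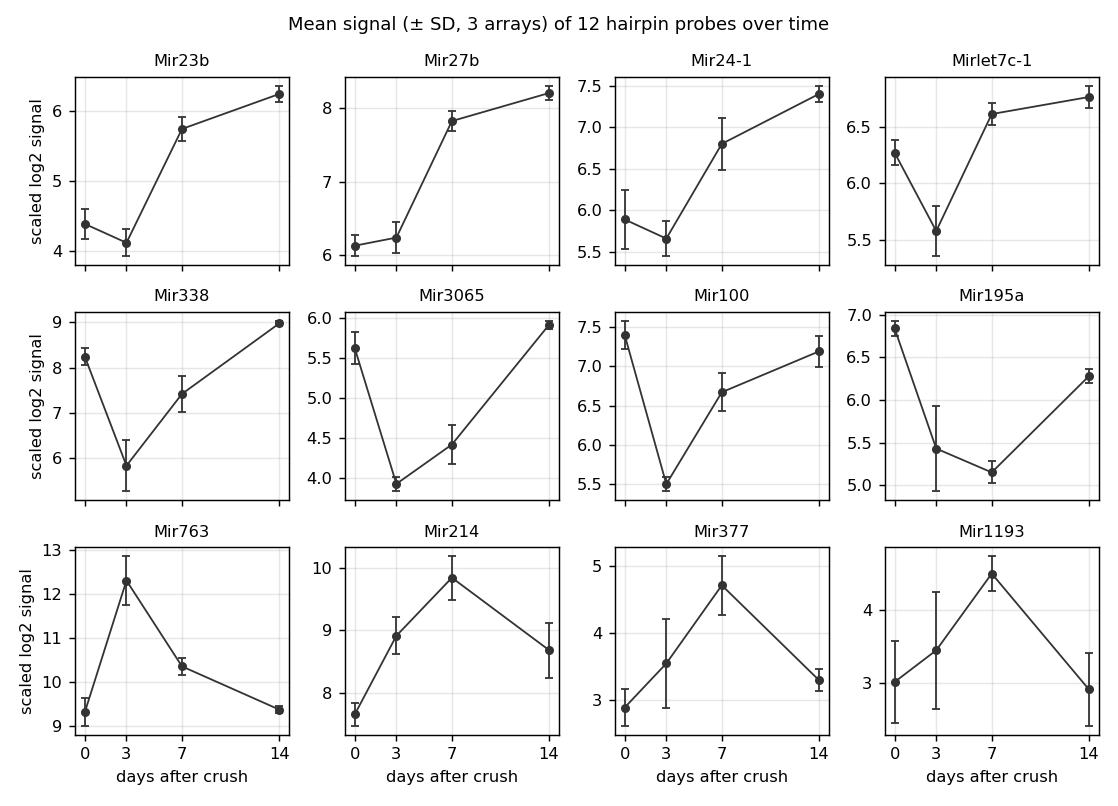
Each panel shows 1 hairpin, with the mean scaled log2 signal of 3 arrays and its SD at days 0, 3, 7 and 14 after the crush. Panels have their own vertical scales. Mir23b, Mir27b and Mir24-1 stay near day 0 at day 3 and are higher at day 7. Mir338, Mir3065 and Mir100 are lowest at day 3, Mir763 is highest at day 3, and Mir214, Mir377 and Mir1193 are highest at day 7.

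The largest falls by size were in hairpins of little-known miRNAs. Mir6363, on the strand opposite to the non-coding RNA Dubr, went from 10.53, 10.52 and 10.83 to 8.68, 8.47 and 8.30. The log2 fold change was -2.14 (SE 0.13, adjusted p = 6.5e-07), and -2.26 with the slide block. Mir6351 (in 6030407O03Rik) stood well above background throughout day 0 and nowhere at day 7, and was at least 3.49-fold lower at day 7 (adjusted p = 0.000492, and 0.0115 with the slide block). Mir7226, in the phosphatase gene Ptprf, was at least 1.49-fold lower (adjusted p = 4.88e-06, and 0.000179 with the block). Mir7653 of Tlcd1 fell by a log2 fold change of -0.83, and -1.18 with the block. For 7 of the 15 largest falls well above background the slide block ended the call: Mir294 (-1.29 without and -0.30 with the block), Mir6338 (-1.08 and -0.38), Mir3473e (-1.03 and -0.29), Mir7088 (-1.02 and -0.26), Mir6352 (-0.88 and -0.43), and the above Mir142b and Mir195b. In these hairpins the day 0 array of slide 2 lay closer to the day 7 arrays than the other day 0 arrays did, as in Mir294 with 5.11 against 6.63 and 6.60.

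Members of the other lists were chosen with results known. None of the 7 epithelial hairpins was bright enough to be tested, and 6 were not well above background on any of the 6 arrays. Of the 5 muscle hairpins only Mir133b could be tested, and it did not pass (log2 fold change 0.04, adjusted p = 0.947). Of 12 neural hairpins 7 were tested, and 57.1% of those were called. The called share was 25% over all tested hairpins and 44.4% over all tested probes. Mir128-1 and Mir7-1 (0.57, adjusted p = 0.01) rose and Mir338 fell. Mir7b was well above background on 2 day 0 arrays and no day 7 array, was called at least 1.71-fold lower (adjusted p = 0.0457), and was not called with the block (adjusted p = 0.54). Mir219a-1, a miRNA of myelinating cells in the brain, did not pass (-0.26, adjusted p = 0.136). In the miR-17 clusters 6 of 15 hairpins were tested and 33.3% of those called. Mir92-1 rose and Mir93 of Mcm7 fell (-0.56, adjusted p = 0.0244), the latter not with the block (-0.15). Its neighbours Mir25 (0.18) and Mir106b (-0.66) did not pass. For defining markers of Schwann cells, macrophages and the other cell types, no probe could be assigned by a match to their transcripts. A few planned genes, among them the neuron marker Prph and the red cell marker Alas2, were met only by window probes, described below.

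Probes in the windows around gene starts gave a further 382 readings, of which 254 were tested, 38 were higher and 62 lower (39.4% called, 44.4% over all probes). On the strand of the gene 16 of 128 were higher and 30 lower, and on the opposite strand 22 of 126 were higher and 32 lower. The slide block gave 31 higher and 50 lower. A window probe can lie in the body of another gene, and that gene is named where its span holds the probe on the probe's strand.

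A probe that lies within Il1b on its strand, in the window of Il1bos, was well above background on no day 0 array (2.44, 1.92 and 1.89) and on all day 7 arrays (4.47, 4.52 and 4.71). Il1b encodes interleukin-1 beta, an early cytokine of nerve injury. The signal was at least 1.93-fold higher at day 7 (adjusted p = 0.00122) and 1.86 lower than at day 3 (adjusted p = 0.0116). A probe within Slfn1, a schlafen gene of immune cells, in the window of Gm51911, went from 5.22, 5.12 and 4.11 to 8.16, 8.23 and 9.12. Its log2 fold change was 3.69 (SE 0.37, adjusted p = 1.74e-05), and 4.28 with the slide block. The probe over the start of H2ac24, a histone gene used when DNA is copied, went from 6.67, 6.52 and 6.47 to 9.17, 9.0 and 9.39. The signal of this probe rose by 2.64 (SE 0.16, adjusted p = 5.65e-07), or 2.63 with the slide block, and was 0.96 below that of day 3. Most of the probe lies before the annotated start, and no annotated gene span holds all of it. A probe within Casp6, a caspase gene linked to axon breakdown, rose by 1.02 (adjusted p = 0.000298).

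A zinc finger gene, Zfp827, had 2 probes in its window, and both rose by log2 fold changes of 1.67 and 1.21. The first read 7.96, 8.10 and 8.14 at day 0 and 9.67, 9.73 and 9.81 at day 7. Both were above day 3 (adjusted p = 0.00012 and 0.00213) and above day 14 (adjusted p = 0.00243 and 0.00349). RNA antisense to the start of Zeb2, a repressor gene that Schwann cells need for remyelination, rose by 0.89 (adjusted p = 0.000277) at 1 probe and 1.01 (adjusted p = 2.48e-05) at another. At the first it went from 8.70, 8.70 and 8.91 to 9.88, 9.60 and 9.50. Sec1 antisense RNA, within Ntn5, rose by 2.18 (adjusted p = 0.000516), and antisense RNA in the window of Tmem33 by 1.79 (adjusted p = 1.93e-06).

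Falls were also read by window probes. A probe within Cadm2, an adhesion gene of axons and glia, in the window of 1700010K23Rik, went from 12.19, 12.03 and 12.55 to 10.32, 10.25 and 10.15. Its log2 fold change was -2.02 (SE 0.17, adjusted p = 4.51e-06), and -2.17 with the slide block. The probe before the start of 4930555G07Rik, within 1700113H08Rik, showed the largest fall of the windows, from 9.09, 8.90 and 9.47 to 5.42, 5.26 and 4.31. The log2 fold change there was -4.16 (SE 0.31, adjusted p = 2.11e-06). RNA within Pnkd, read at the start of Tmbim1, fell by a log2 fold change of -2.33 (adjusted p = 2.3e-06) after a deeper low at day 3, 1.56 below day 7. Plce1, a phospholipase gene, fell by a log2 fold change of -1.52 (adjusted p = 0.000225). Prph encodes peripherin, a filament of peripheral axons. The probe in its window went from 8.81, 8.80 and 8.26 to 7.48, 7.86 and 7.98, a log2 fold change of -0.85 (adjusted p = 0.00555) that was -0.35 with the block (adjusted p = 0.0221). Hgf antisense RNA (-1.03, adjusted p = 0.0613) did not pass, and Alas2 antisense RNA was called lower (-0.44) and not with the block. In the window of Mirg 1 sense probe gave -0.50 (adjusted p = 0.0974), and -0.03 with the block. Another gave -0.15 (adjusted p = 0.647), and 0.40 with the block, and neither was called.

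**Figure D5:**
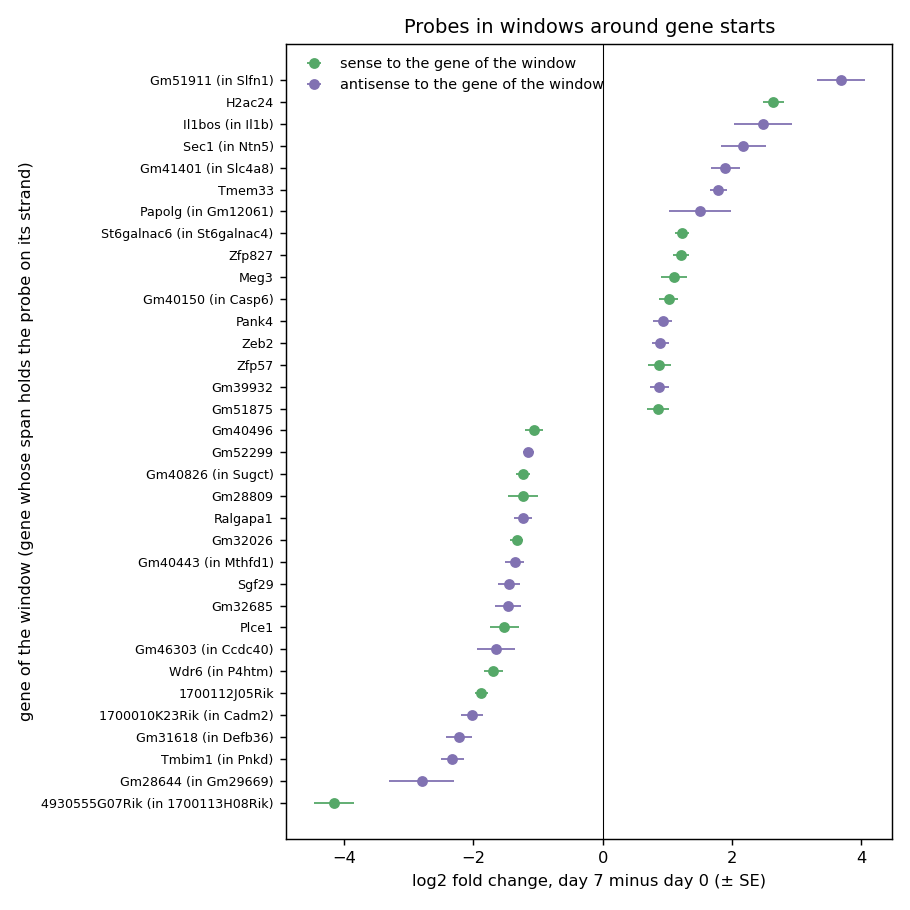
The horizontal axis is the log2 fold change at day 7 with its standard error, and each row is the brightest probe of 1 gene window, green where it reads the gene's strand and purple where it reads the opposite strand. Brackets give another gene whose span holds the probe on its strand. Rises range from 0.86 for Gm51875 to 3.69 for Gm51911, and falls from -1.06 for Gm40496 to -4.16 for 4930555G07Rik.

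Day 7 was also set against its neighbours in time. Over all tested probes the day 7 against day 3 contrast called 34.3%, and that of day 14 against day 7 called 9.96%. The hairpins counted next were chosen by day 7 values that enter both contrasts, which favours day 7 as the extreme. Of the 68 hairpins that rose, 16 were higher and 4 lower at day 7 than at day 3. Day 14 was lower than day 7 for 10 of the 68 and higher for none. For 3 of the 68, day 7 was called above both neighbours. Of the 64 that fell, 5 were higher and 28 lower at day 7 than at day 3, and day 14 was higher than day 7 for 4. Slide 3 held day 14 and 1 array of day 7, and slides 1 and 2 held day 3, so slide moves with these contrasts as well.

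Among probes with no name, the largest changes well above background on all 6 arrays exceeded those of any hairpin. MOUSELNCRNA_69499 went from 4.99, 5.09 and 5.20 to 12.68, 12.89 and 12.31, a log2 fold change of 7.53 (SE 0.20, adjusted p = 6.87e-09). MOUSELNCRNA_61577 rose by 7.05 (adjusted p = 1.83e-08). MOUSELNCRNA_58744 fell from 13.91, 13.76 and 13.97 to 6.18, 5.56 and 6.61, a log2 fold change of -7.77 (SE 0.29, adjusted p = 3.85e-08), and MOUSELNCRNA_77066, which overlaps it, by -7.74. The genes they read were not identified here.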

How the data were processed

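Each deposited scanner file gives an intensity for every spot, background-subtracted by Agilent Feature Extraction, per the file headers. The submitters' processing notes name its version 10.7. No scaling between arrays had been applied. The labels' protocols give total RNA, amplified and labelled with Cy3. The deposited series table holds log2 values by the authors, with a median of 6.42 in every column, correlating at 0.993 or more with the log2 scanner signal. How that table was made is not stated in the labels, and scale and direction follow from the scanner files. Fitted in the same way, its values called 15730 probes higher and 12776 lower, beside 15731 and 12773 after quantile normalization. As alternatives these are therefore nearly the same.

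Control and outlier-flagged spots were left out, log2 processed signals of repeated spots averaged, and arrays scaled to a common 75th percentile (9.34). The model (limma 3.58.1, R 4.3.3) held a mean for every time point and used all 12 arrays, leaving 8 residual degrees of freedom, since days 3 and 14 add to the estimate of spread. P-values measure the spread between pools of 1 time point, and 3 arrays a group limit the precision. Where a probe was well above background on no array of 1 day, the fold is a bound: the bright day's mean against the dim day's mean of the larger of 2 signals on each array, the probe's own and the lowest among probes well above background (3.38 to 4.18).

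Probes were matched to RefSeq hairpins and start windows by all 60 bases, with Python 3.11.15. Members and lists were chosen with earlier results of these data known. The planned lists of protein-coding genes and cell markers could be read only at a few genes, through window probes, with Zeb2, Alas2 and Prph called. The naming rule was therefore applied to hairpins and windows separately, with lists of miRNAs. It took the 15 calls of greatest log2 fold change in each direction among probes well above background on all 6 arrays without overlap. It also took up to 4 called per list and the 5 largest bounds each way. Meg3 and H19, which alone of 14 preset genes could be read, H19 through Mir675, were named as well. Hairpins outside the rule, named for context, were chosen after their values were seen. The fit and the matching were tested on simulated data.

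The alternatives were quantile scaling, another percentile, normexp background, filters, the authors' values, slide and replicate blocks, 6 arrays only, a stricter threshold, the mean over probes and leaving out each array.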

Additional observations from a re-analysis of the deposited data

Results flagged for a closer look

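The change from day 0 was compared between day 7 and day 3 for 87 named readings, and 28 differed by the test of day 7 against day 3 both with and without slide as a block (limma, adjusted over all tested probes). The numbers below are day 7 minus day 3 on the log2 scale. These readings were chosen by their change at day 7.

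Hairpins higher at day 7 than at day 3 were Mir23b (1.63), Mir338 (1.59), Mir27b (1.58), Mir100 (1.17), Mir377 (1.17), Mir24-1 (1.14), Mirlet7c-1 (1.03) and Mir7-1 (0.48). For Mir338 and Mir100 both days were below day 0. Window readings higher at day 7 were Tmbim1 (1.56), Meg3 (0.99), Zeb2 (0.73), Plce1 (0.72) and Zfp827 (0.68).

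Hairpins lower at day 7 than at day 3 were Mir6244 (-0.84), Gm38671 (-1.09), Mir3473e (-1.13) and Mir763 (-1.95). Window readings lower at day 7 were Gm32026 (-0.62), Gm40826 (-0.66), Gm31618 (-0.74), Gm40443 (-0.85), H2ac24 (-0.96) and Il1bos (-1.86). The unnamed probes MOUSELNCRNA_58744 (-1.33) and MOUSELNCRNA_61577 (-2.12) were lower too. For H2ac24, Il1bos, Mir763 and MOUSELNCRNA_61577 both days were above day 0. Mir7226 (-1.01), Mir29a (-1.66) and Gm46303 (-1.85) were well above background on no day 7 array, so these fitted differences do not measure the size of the change. At day 3, Mir23b and Mir377 were well above background on 1 array each, and their differences depend on signals near background.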

How the results depend on the processing

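Of 87 named readings, 46 kept their direction and their side of the threshold under every alternative, and 58 did so apart from the comparison within slide 2, which rests on 1 day 0 and 2 day 7 arrays. Within slide 2, 5337 probes were higher and 6480 lower, with 24 and 10 hairpins, 21 and 27 window probes, 2 hairpins of the miR-23, 27 and 24 clusters and 5 of the Dlk1-Dio3 region higher. Mir7b reversed there to 0.04. At an adjusted p below 0.01, 9433 probes were lower, 43 hairpins higher and 23 lower, and 38 window probes lower. Normexp background gave 2922 rises and 2881 falls of 2-fold or more against 4527 and 5882, and 3 cluster hairpins. Slide as a fixed block gave 30 hairpins lower, 3 cluster hairpins and 14 region hairpins higher, and slide as a random block 35 hairpins lower. Quantile normalization and the authors' values each gave 14 region hairpins, and no filter on dim probes gave 18. Of called probes 46% were higher, and 55.2% with quantile normalization. Leaving out 1 array at a time gave 27 to 204 hairpins lower, the latter without day 0 replicate 3, and 5007 to 9307 falls of 2-fold or more. Probes higher ranged from 10175 to 13968, probes lower from 11075 to 20984, hairpins higher from 50 to 65, window probes from 30 to 41 higher and 43 to 86 lower, rises of 2-fold or more from 4339 to 4811, region hairpins from 7 to 8 and cluster hairpins from 4 to 5. The cause of these shifts was not tested. Replicate numbers did not pair the samples (correlations -0.17, 0.34 and 0.08), and the replicate block gave 12992 probes higher and 16341 lower, with 68 and 79 hairpins. Hairpins near background limit what can be read, and 219 of 871 were above it on none of the 6 arrays.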
